A study of Mus musculus with 97 samples.

Results

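Genes of glycolysis were followed through cortex and hippocampus of chemotherapy-treated and control mice, namely Aldoa, Tpi1, Gapdh, Pgk1, Pgam1, Eno1, Eno2, Pkm, Ldha and Ldhb. These 10 genes, out of 19962 measured, were chosen by name as the enzymes of the lower pathway and the lactate dehydrogenases. The choice was made with earlier results of these data known. Each gene was read singly and in the sum of all 10. Tissue sections 8 µm thick were hybridised with the NanoString GeoMx mouse whole transcriptome panel, in which probe tags are released by ultraviolet light from a chosen region and then sequenced. The 97 libraries (49 cortex, 48 hippocampus) came from older human APOE knock-in mice. The APOE4 and APOE3 mice each had 3 treatment arms, and every arm was sampled in both brain regions, which gave 12 groups of 8 libraries, except for 9 in APOE3 DD cortex. DD was doxorubicin (3 mg/kg/week) with docetaxel (10 mg/kg/week), DC was doxorubicin (3 mg/kg/week) with cyclophosphamide (40 mg/kg/week), and vehicle was dimethyl sulfoxide in buffered saline. All arms were injected into the peritoneum on 2 occasions a week for 2 weeks. All APOE4 libraries were on 1 collection plate and all APOE3 libraries on the other, so that genotype and plate cannot be told apart. No label says which animal a region came from; p-values over regions are too small wherever several regions share one, and otherwise measure only the spread between regions.

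Glycolysis splits glucose into pyruvate in the cytosol and yields ATP without oxygen. Aldolase cuts the sugar and triosephosphate isomerase interconverts the products, after which Gapdh, Pgk1, Pgam1, the enolases and pyruvate kinase carry them to pyruvate. Lactate dehydrogenase then interconverts pyruvate and lactate, and in brain both neurons and astrocytes use the pathway, with Eno2 known as the enolase of neurons and Ldha and Ldhb as the subunits favoured by lactate-producing and lactate-using tissues.

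In the mouse genome GRCm38.p6, the RefSeq annotation placed all 10 protein-coding genes. Aldoa lies at chr7:126795234-126800994 and Ldha on the same chromosome at chr7:46842274-46855627. Chromosome 6 holds Tpi1 (chr6:124810586-124814158), Gapdh (chr6:125161852-125166467), Eno2 (chr6:124760053-124769673) and Ldhb (chr6:142490249-142507957). Pgk1 is X-linked (chrX:106187100-106203699), and Pgam1 (chr19:41911871-41918665), Eno1 (chr4:150236708-150248879) and Pkm (chr9:59656576-59679372) are elsewhere. The probe sequences were not used here, so cross-reaction with the processed copies that several of these genes have in the genome was not tested, and signals of different genes are not compared as amounts of RNA.

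Glycolytic genes are classical targets of hypoxia-inducible factors, whose core motif is ACGTG or GCGTG. On either strand, 1 or both of these letter strings occur in the 250 bases before 38.6% of 32851 annotated mouse transcription starts. They occur in 12 of the 16 start windows of the enzymes. The median GC share of all annotated windows was 52.4%. In the enzyme windows it ran from 50.4% to 71.2% and was mostly above that median. Whether the enzymes exceed windows of equal GC share was not tested. By gene, 8 of the 10 have a match before at least 1 start. That count takes up to 3 windows per gene and is not comparable with a share of windows. Windows of 1 gene can overlap, and both letter strings can share bases with their own reverse strand. These sequences are shown because they belong to the 3 genes that differed between the regions and, last, to Ldha, which did not pass the test and has the window with the most matches, 5 (its other window has 1). Each CACGTG in the Ldha window counts once per strand, so its 5 matches lie in fewer stretches of capitals. The window of Pgam1 has 3 matches, and separate stretches were not compared. For Aldoa and Pkm a window with a match is shown, and each of these genes also has 1 window with 0 matches. The sequences are RefSeq sequences of GRCm38.p6, read 5′ to 3′ on the strand of the gene, with each match in capitals. A match is a description of letters and not of binding.
Aldoa, chr7:126799356-126799400, minus strand: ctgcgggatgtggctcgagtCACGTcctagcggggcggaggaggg
Pkm, chr9:59657132-59657176, plus strand: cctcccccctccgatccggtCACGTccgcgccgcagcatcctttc
Gapdh, chr6:125165793-125165847, minus strand: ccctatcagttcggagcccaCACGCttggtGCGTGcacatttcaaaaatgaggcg
Ldha, chr7:46845639-46845794, plus strand: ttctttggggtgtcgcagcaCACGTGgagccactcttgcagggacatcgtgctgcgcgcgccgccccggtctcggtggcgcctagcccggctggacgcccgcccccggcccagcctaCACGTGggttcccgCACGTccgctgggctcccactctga

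Levels are given as a ratio, the deposited value of a gene divided by the negative probe of the same library, which is the pooled signal of probes without a target in the mouse; a ratio of 1 is background. Total counts ranged from 21568 to 1850580 per library, with medians of 61380 in APOE4 and 30579 in APOE3 libraries, and the negative probe ranged from 1.02 to 93.1. It was 5 or more in 13 libraries, all of them APOE4 (6 DC hippocampus, 4 DC cortex, 2 DD cortex and 1 DD hippocampus). The lowest deposited value was 1, and the median share of genes at this floor was 24.9% in APOE4 and 71.5% in APOE3 libraries; a gene at the floor has a ratio below 1 that says only that it was at background. Each total holds at least 1 for every one of the 19962 genes, so totals near that number are mostly floor. Library sizes in the count model include the floor as well. Cell-type and region markers were near background as well: of the 10 marker lists, none had a member with a median ratio over 2 in either region, so the labelled regions could not be checked firmly against their markers. The highest was Slc17a7, which loads glutamate into vesicles in excitatory neurons, with a median ratio of 1.85 in cortex. The mouse Apoe probe had group medians between 0.632 and 0.986, above 1 in 0 of 12 groups.

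Aldoa and Pkm stood above background in cortex, Gapdh did so less, and most other enzymes lay close to it. The median ratio of Aldoa, the muscle-type aldolase that is also widely expressed, was 2.81 in cortex and 0.943 in hippocampus. The median ratio of Pkm, pyruvate kinase of the muscle and brain type, was 2.68 in cortex and 1.48 in hippocampus, and that of Gapdh, the dehydrogenase that makes NADH in the pathway, was 1.47 in cortex and 0.843 in hippocampus. Among all 19962 genes ranked by median ratio, a measure of signal over background and not of RNA amount, Aldoa was number 64, Pkm number 71 and Gapdh number 237 in cortex, whereas Pkm was number 158 in hippocampus. The median gene had a ratio of 0.936 in cortex and 0.912 in hippocampus, and 97 genes in cortex and 60 in hippocampus had a median over 2 times the negative probe. Summed over the 10 enzymes, the median ratio was 1.59 in cortex (lowest 0.735, highest 3.71) and 1.17 in hippocampus (lowest 0.832, highest 1.52). The median share of Aldoa in the sum was 18.1% in cortex and 9.31% in hippocampus, and that of Pkm was 16.7% in cortex and 12.5% in hippocampus.

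**Figure D1:**
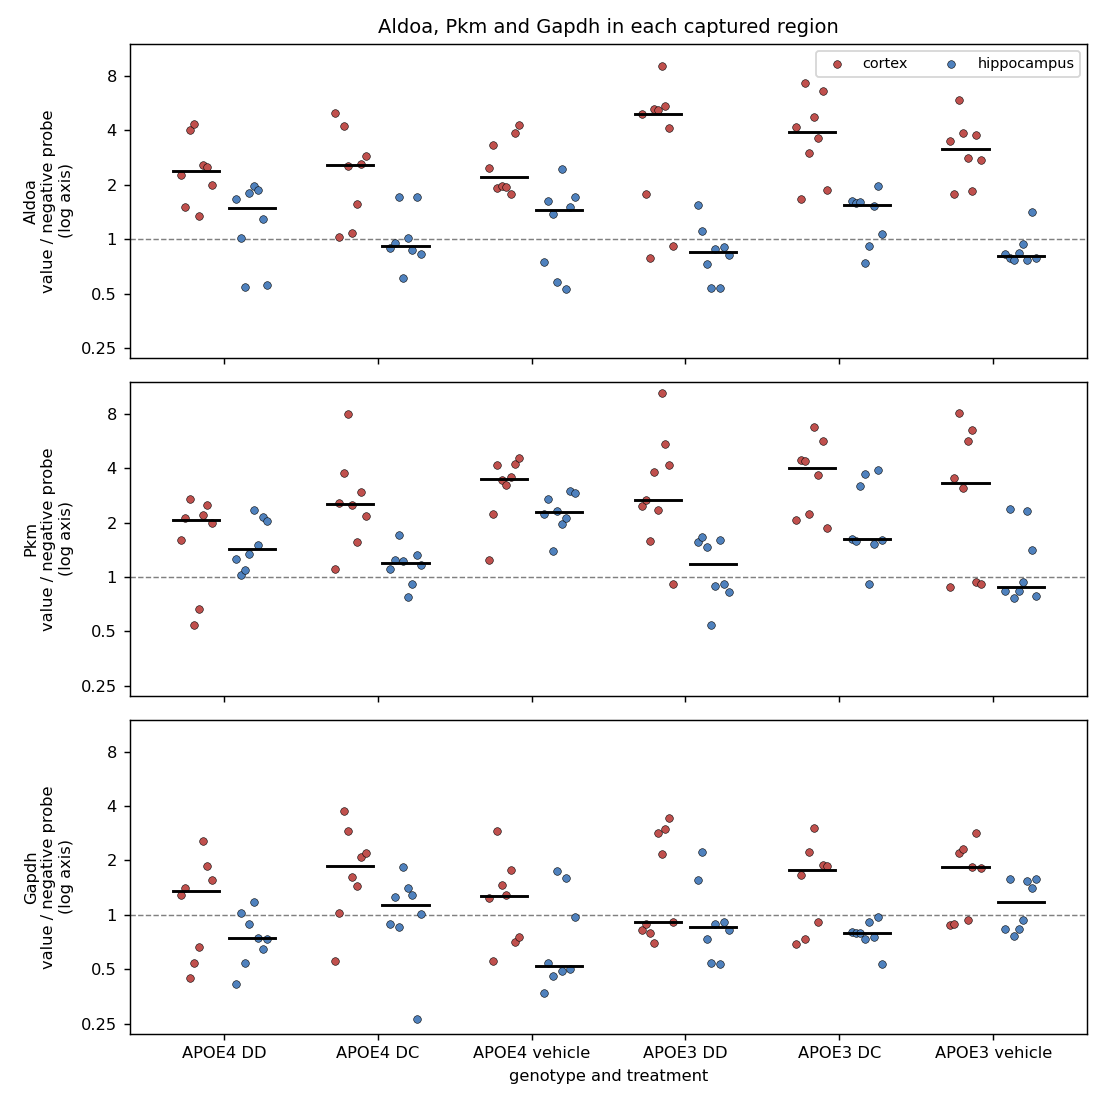
Ratio of Aldoa, Pkm and Gapdh to the negative probe (log axis) in each of the 97 libraries, by genotype and treatment, with cortex in red, hippocampus in blue, black bars at the medians and a dashed line at 1, the background. The cortex median is above the hippocampus median in 6 of 6 pairs for each gene, and the points of the regions are apart only for Aldoa in APOE3 vehicle mice.

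Cortex was first set against hippocampus over all genotypes and treatments, and 3 of the 10 enzymes were higher in cortex. Aldoa had a median ratio of 2.81 in cortex (lowest 0.790, highest 9.07, mean 3.26 ± 1.77, SD, n = 49) and 0.943 in hippocampus (lowest 0.532, highest 2.44, mean 1.15 ± 0.482, SD, n = 48). In the count model, its log2 fold change was 1.43 (SE 0.17), a 2.69-fold higher signal in cortex. The adjusted p was 2.65e-13 in edgeR's quasi-likelihood test with Benjamini-Hochberg adjustment over all genes. Background was not subtracted before modelling, so the folds given here compare signal with background included and are not folds of RNA amount. The ranges overlap, but 46 of the 49 cortex libraries held more than the lowest deposited value and exceeded the median of their own hippocampus group. Pkm ranged from 0.542 to 10.4 in cortex (mean 3.27 ± 2.09, SD, n = 49) and from 0.540 to 3.91 in hippocampus (mean 1.64 ± 0.794, SD, n = 48). The difference was 1.97-fold (log2 0.98, SE 0.17, adjusted p 1.91e-06), and by the same count 40 of the 49 cortex libraries lay above their hippocampus median. Gapdh ranged from 0.448 to 3.76 in cortex (mean 1.61 ± 0.869, SD, n = 49) and from 0.264 to 2.23 in hippocampus (mean 0.951 ± 0.430, SD, n = 48). It was 1.68-fold higher in cortex, a log2 fold change of 0.75 (SE 0.18, adjusted p 0.0116), with 33 of 49 cortex libraries above their hippocampus median. Without the 13 libraries of high negative probe, Gapdh had a log2 fold change of the same size, 0.75, and an adjusted p of 0.0915; without APOE3 DC cortex 5 it had 0.70 and 0.0527. With libraries scaled to the genes that pass a low-count filter, which put the median of all genes at -0.45, Pkm had 0.46 (adjusted p 0.0568) and Gapdh 0.24 (adjusted p 0.272), both still above that median.

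The remaining enzymes did not pass the test in this comparison. Eno2, the neuronal enolase, had median ratios of 0.947 in cortex and 0.846 in hippocampus, with a log2 fold change of 0.34 (95% interval -0.05 to 0.72). Ldhb, the lactate dehydrogenase B subunit, had medians of 1.32 in cortex and 0.902 in hippocampus and a log2 fold change of 0.28 (-0.06 to 0.62). For Pgk1, the first ATP-forming kinase of the pathway, medians were 1.29 in cortex and 0.956 in hippocampus, and the log2 fold change was 0.21 (-0.13 to 0.56). These 3 intervals include 0. Pgam1, the mutase, had medians of 1.08 in cortex and 0.898 in hippocampus (log2 fold change 0.11, -0.25 to 0.47). Tpi1, the isomerase, had medians of 1.22 in cortex and 1.10 in hippocampus (0.05, -0.36 to 0.45). For Ldha, the A subunit, the medians were 0.915 in cortex and 0.894 in hippocampus (-0.05, -0.44 to 0.33). Eno1, the widely expressed enolase, had medians of 0.944 in cortex and 0.912 in hippocampus, with a log2 fold change of 0.01 and an unadjusted p of 0.941. Over each region as a whole, the medians of Ldha and Eno1 were below 1, near those of the median gene.

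The call rate over the whole panel in this comparison was 0.386% (77 of 19962 genes; 75, or 0.376%, were higher in cortex), against 3 of 10 enzymes. The median log2 fold change was 0.25 over the 10 enzymes and -0.03 over all genes, and 9 of 10 enzymes and 8371 of 19962 genes were above 0. By p, Aldoa was number 11, Pkm number 37 and Gapdh number 64 of all genes. Of the 30 other glycolysis genes (transporters, hexokinases, phosphofructokinases, regulators and other isoforms), 0 passed the same test and 3 had an unadjusted p under 0.05, with a median log2 fold change of 0.09. The 4 of them with the highest cortex medians were Tigar, a fructose bisphosphatase that slows glycolysis, with a median ratio of 1.67 in cortex and 0.928 in hippocampus, the brain aldolase Aldoc with 1.39 in cortex and 1.08 in hippocampus, and the regulatory enzymes Pfkfb2 with 1.28 in cortex and 0.956 in hippocampus and Pfkfb4 with 1.23 in cortex and 0.843 in hippocampus. Of the 21 genes of the citric acid cycle, 0 passed and 1 had an unadjusted p under 0.05, with a median log2 fold change of 0.01. The difference of the enzymes from these lists was not tested. Both the enzymes and the lists were chosen with earlier results of these data known, so their call rates beside that of the panel are descriptions. In cortex only 97 genes of the panel had a median ratio over 2, Aldoa and Pkm among them, and 0 genes of these lists did. Call rates were not compared among genes of equal signal over background.

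Slc17a7 was the marker that moved with the region: it was higher in cortex by 0.66 on the log2 scale (SE 0.16, adjusted p 0.0153). The 6 excitatory neuron markers had a summed ratio with a median of 1.45 in cortex (0.885 to 2.44) and 1.22 in hippocampus (0.793 to 2.10), and 1 of the 6 passed the test. In the other 9 marker lists, 0 members passed; 2 of the 5 red blood cell markers were used here. The part of cell make-up in the difference of Aldoa, Pkm and Gapdh was not tested, and in captured regions fewer cells of a type and less RNA per cell cannot be told apart. Within cortex, Spearman's rho of the Aldoa ratio was -0.06 with the negative probe and -0.02 with the total count (n = 49 libraries), and that of the summed ratio was 0.04 and 0.11, as a description of libraries that share the negative probe as denominator.

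**Figure D2:**
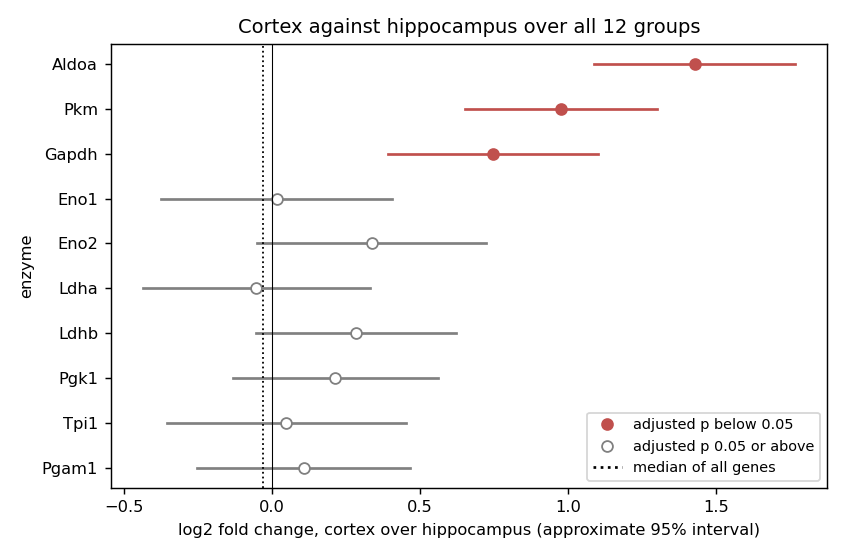
Log2 fold change of the 10 enzymes in cortex over hippocampus, averaged over 6 pairs of groups in 97 libraries, with approximate 95% intervals; filled red points have an adjusted p below 0.05 and the dotted line is the median of all genes. Aldoa, Pkm and Gapdh lie apart from 0, at 1.43, 0.98 and 0.75, and the intervals of the other enzymes include it.

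Taken pair by pair, Aldoa passed the test in 2 of the 6 genotype and treatment pairs and Pkm in 1, with log2 fold changes above 0 in all 6 pairs for Aldoa, Pkm and Gapdh. Aldoa had its highest group median in APOE3 DD cortex, at 4.92 (0.790 to 9.07, n = 9), against 0.854 (0.535 to 1.55, n = 8) in APOE3 DD hippocampus. The log2 fold change of this pair was 2.26 (SE 0.43, edgeR adjusted p 0.000961), where 0.0601% of genes were called. The groups overlap because 2 of the 9 cortex libraries held Aldoa at the lowest deposited value, and the call was lost under the scaling to genes passing the low-count filter (1.72, adjusted p 0.789). In APOE4 DC mice, the Aldoa ratio was 2.57 (1.03 to 4.98) in cortex and 0.921 (0.612 to 1.72) in hippocampus, with a log2 fold change of 1.13 (SE 0.28, adjusted p 0.0171), and the call rate there was 0.521%. Pkm in the same pair was 2.54 (1.11 to 7.96) in cortex and 1.19 (0.780 to 1.71) in hippocampus, with a log2 fold change of 1.31 (SE 0.31, adjusted p 0.00661). Both of these calls in APOE4 DC mice were lost without the libraries of high negative probe, which are 4 of the 8 cortex and 6 of the 8 hippocampus libraries, although the log2 fold changes were not smaller (1.32 for Aldoa and 1.44 for Pkm, each adjusted p 0.960). They were also lost with limma on log2 ratios (1.16, adjusted p 0.272 for Aldoa; 1.18, adjusted p 0.281 for Pkm) and with the run of wells as a block (adjusted p 0.277 for Aldoa and 0.286 for Pkm). Summed over runs of wells, Pkm had 1.33 with an adjusted p of 0.0917. Of the alternatives, 5 lost each call, 1 turned its sign and 4 kept it. Where kept, Aldoa had 1.13 to 1.23 (adjusted p at most 0.0435) and Pkm 1.17 to 1.37 (adjusted p at most 0.0206). The Aldoa call was also lost without any of 7 single libraries (cortex 1, 3, 7 and 8 and hippocampus 2, 6 and 8 of APOE4 DC, adjusted p at most 0.110). The Pkm call was lost without APOE4 DC cortex 4 (log2 fold change 0.99, adjusted p 0.198).

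APOE3 vehicle mice were the 1 pair whose Aldoa values did not overlap between the regions, although no enzyme passed the test there. Aldoa was 3.16 (1.77 to 5.90) in cortex and 0.811 (0.763 to 1.41) in hippocampus, with the cortex values all above those of hippocampus. Of the 8 hippocampus libraries, 7 held Aldoa at the lowest deposited value and the other at 2, whereas the cortex libraries held 2 to 8 counts. The log2 fold change was 1.83 (SE 0.49, adjusted p 0.719), in a pair where 0.015% of genes were called. The summed ratio of the 10 enzymes also did not overlap there, at 1.46 to 2.80 in cortex and 0.832 to 1.34 in hippocampus. The share of all genes whose regions did not overlap in this pair is not given here, so both separations are descriptions only.

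In the other pairs the regions overlapped. Aldoa was 3.90 (1.67 to 7.32) in APOE3 DC cortex and 1.55 (0.739 to 1.95) in APOE3 DC hippocampus (log2 fold change 1.51, SE 0.41, adjusted p 0.301; 0.0301% of genes called). It was 2.22 (1.78 to 4.29) in APOE4 vehicle cortex and 1.44 (0.532 to 2.44) in APOE4 vehicle hippocampus (0.98, SE 0.36, adjusted p 0.615; 0.461% called, of which 77 of 92 genes were lower in cortex). In APOE4 DD mice it was 2.37 (1.34 to 4.33) in cortex and 1.48 (0.545 to 1.97) in hippocampus (0.86, SE 0.34, adjusted p 0.853; 0.105% called). The region difference of Aldoa was thus numerically larger in each APOE3 arm than in the same APOE4 arm, but the region by genotype interaction was -0.88 (SE 0.33) with an unadjusted p of 0.00788 and an adjusted p of 1.00 in edgeR, so that it did not pass. For Pkm that interaction was -0.64 (SE 0.32, unadjusted p 0.0486, adjusted p 1.00).

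**Figure D3:**
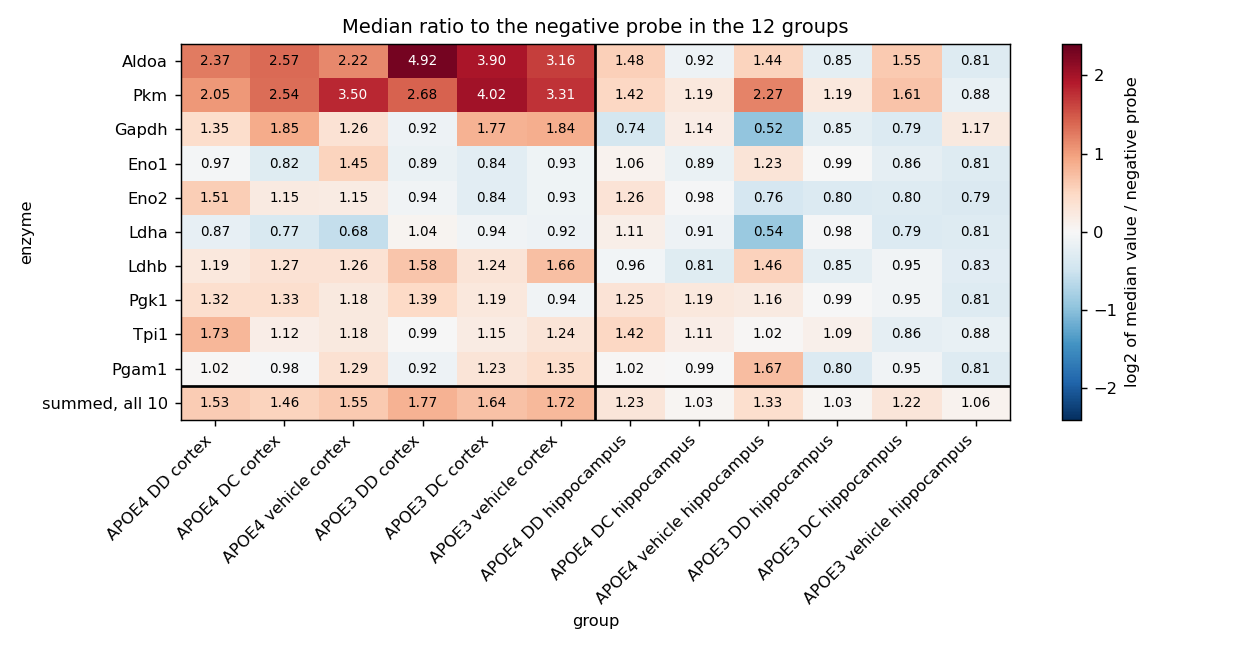
Median ratio of each enzyme and of their sum to the negative probe in the 12 groups (printed in each cell, n = 8 or 9 libraries), cortex groups on the left and hippocampus groups on the right, coloured by the log2 of the median. Aldoa and Pkm are above 2 in all 6 cortex groups, while the sum runs from 1.03 to 1.77.

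Across the 12 groups, the median of the summed ratio ran between 1.03 in APOE4 DC hippocampus and 1.77 in APOE3 DD cortex. For comparison, lists that lay near background had summed medians of 1.15 in cortex and 1.06 in hippocampus (the 30 other glycolysis genes) and of 1.12 in cortex and 1.04 in hippocampus (the 21 citric acid cycle genes), and the citric acid cycle genes had 1.03 in APOE4 DC hippocampus, as the enzymes did. The cortex group medians of the enzymes were 1.53 in APOE4 DD, 1.46 in APOE4 DC, 1.55 in APOE4 vehicle, 1.77 in APOE3 DD, 1.64 in APOE3 DC and 1.72 in APOE3 vehicle, and their ranges overlapped. In hippocampus the medians were 1.23 in APOE4 DD, 1.03 in APOE4 DC, 1.33 in APOE4 vehicle, 1.03 in APOE3 DD, 1.22 in APOE3 DC and 1.06 in APOE3 vehicle. The cortex median of the sum was above that of hippocampus in 6 of 6 pairs, as it was for Aldoa, Pkm and Gapdh. Pairs in which both regions had a median deposited value of 1 have no order, and there were 2 such pairs each for Eno1, Eno2 and Ldha and 1 for Pgk1. In the pairs that have one, the cortex median was higher in 5 for Pgk1, Ldhb and Tpi1, in 4 for Eno2 and Pgam1, in 2 for Ldha and in 1 for Eno1. Gapdh, often used as a housekeeping gene, had group medians between 0.521 in APOE4 vehicle hippocampus and 1.85 in APOE4 DC cortex, and was above 1 in 7 of the 12 groups.

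Treated mice were then compared with vehicle mice of the same genotype and region, in 8 comparisons in which DD and DC share their vehicle libraries. Of the 80 tests of an enzyme, 1 passed: Pkm was lower in APOE4 DC hippocampus. Its ratio was 1.19 in APOE4 DC hippocampus (0.780 to 1.71) and 2.27 in APOE4 vehicle hippocampus (1.38 to 3.00). In ratio, 7 of the 8 DC libraries lay below the lowest vehicle library, while the deposited values were 2 to 108 in DC and 3 to 12 in vehicle libraries. The log2 fold change was -1.11 (SE 0.26, adjusted p 0.00396 in edgeR). In this comparison 0.932% of all genes were called, 183 of the 186 being lower with DC, and the median of all genes was -0.11.

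The negative probe differed in the same comparison, without passing its test after adjustment. Its geometric mean was 5.15-fold higher in DC than in vehicle libraries of APOE4 hippocampus (two-sided exact permutation test p = 0.00466, adjusted p 0.0653 over 14 such comparisons, n = 8 each), and over runs of neighbouring wells the exact p was 0.0857 (adjusted p 0.400). Of the 8 DC libraries, 6 had a negative probe of 5 or more, against 0 of the 8 vehicle libraries. Without all hippocampus libraries of such a negative probe (these 6 and 1 of APOE4 DD), which left 2 DC libraries, the log2 fold change of Pkm was -0.68 with an adjusted p of 0.990. The call was lost there, as it was with limma on log2 ratios (-0.98, adjusted p 0.395) and with upper-quartile scaling (-0.71, adjusted p 0.171). Of the alternatives, 5 lost the call, 1 turned its sign and 4 kept it (-1.12 to -1.02, adjusted p at most 0.0247). Scaling to the negative probe and DESeq2 were among those that kept it. Without APOE4 vehicle hippocampus 8, the value was -1.03 and the adjusted p 0.0647. When libraries were scaled to the few genes that pass a low-count filter, the sign of the Pkm difference turned to 1.64, with a median of all genes of 2.63; relative to that median Pkm was still lower. The part of the background in the Pkm difference was not tested beyond these values. In APOE3 hippocampus, the log2 fold change of Pkm with DC was 0.73 (SE 0.49, adjusted p 0.974), from a ratio of 1.61 (0.914 to 3.91) in APOE3 DC hippocampus and 0.884 (0.763 to 2.37) in APOE3 vehicle hippocampus. The DC by genotype interaction, the DC difference of APOE4 mice minus that of APOE3 mice, was -1.84 (SE 0.55, unadjusted p 0.000737, adjusted p 1.00, edgeR) and did not pass.

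**Figure D4:**
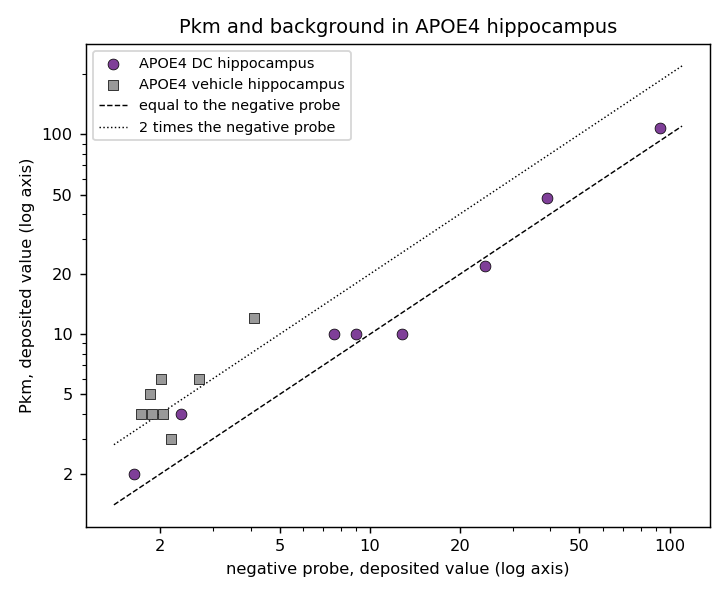
Deposited value of Pkm against the negative probe (log axes) in APOE4 hippocampus, DC libraries as purple circles and vehicle libraries as grey squares, with lines at 1 and 2 times the negative probe. The DC libraries reach a negative probe of 93.1 and lie near the line of equality, while vehicle libraries lie at ratios of 1.38 to 3.00.

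In the other 7 treatment comparisons no enzyme passed. The share of genes called was 0.0651% for DD and 0.0802% for DC in APOE4 cortex, 0.0301% for each regimen in APOE3 cortex, 0.341% for DD in APOE4 hippocampus, and 0% for DD and 0.00501% for DC in APOE3 hippocampus. In APOE4 cortex, Pkm was 2.05 (0.542 to 2.69) with DD, 2.54 (1.11 to 7.96) with DC and 3.50 (1.23 to 4.54) with vehicle. The log2 fold changes were -0.89 (SE 0.45, adjusted p 0.943) for DD and -0.25 (SE 0.42, adjusted p 0.955) for DC. Eno1 in APOE4 cortex with DC had a log2 fold change of -0.82 (SE 0.34, unadjusted p 0.0152, adjusted p 0.594). The ranges of these groups overlap.

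Aldoa, the enzyme with the smallest p between the regions, showed no difference with treatment that passed. In APOE3 cortex its log2 fold changes were 0.56 (SE 0.45) for DD and 0.45 (SE 0.47) for DC, next to a median of all genes of 0.20 for each regimen. In APOE4 cortex they were -0.20 (SE 0.43) for DD and -0.26 (SE 0.42) for DC, with all-gene medians of -0.10 and -0.14. In hippocampus its values were -0.15 (SE 0.38) for DD and -0.58 (SE 0.32) for DC in APOE4, and -0.08 (SE 0.65) for DD and 0.54 (SE 0.60) for DC in APOE3. Over the 8 comparisons, the median of the 10 enzymes stayed between -0.30 (APOE4 hippocampus DC) and 0.26 (APOE3 cortex DD).

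**Figure D5:**
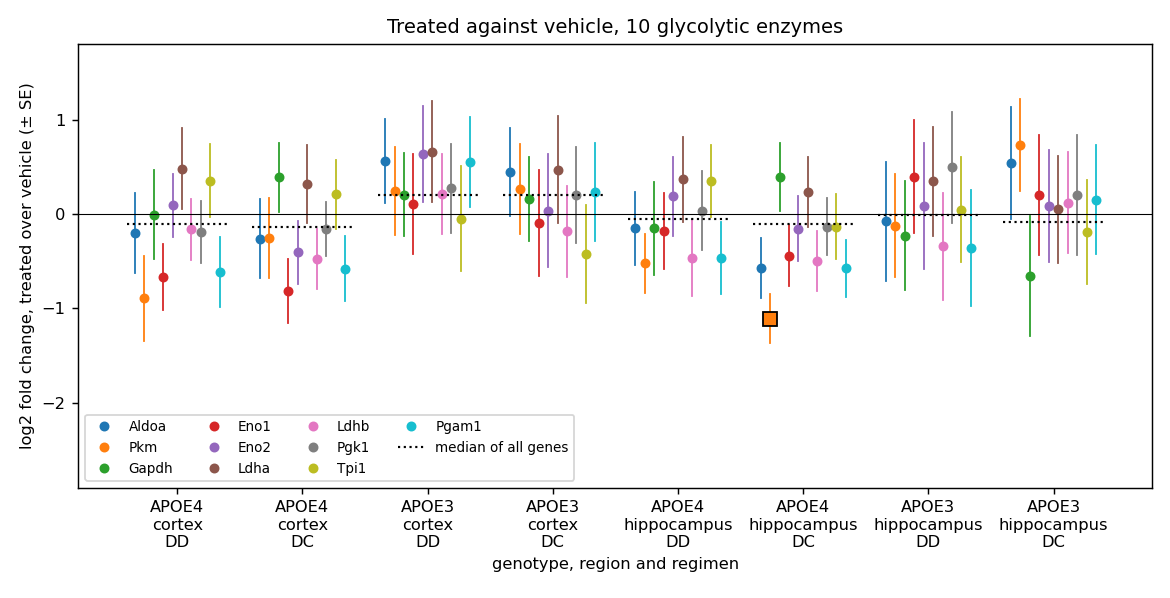
Log2 fold change of the 10 enzymes in treated over vehicle mice in the 8 comparisons of regimen, genotype and region, with SE bars and a dotted line at the median of all genes. The black-edged square is Pkm in APOE4 hippocampus with DC, at -1.11, the 1 value with an adjusted p below 0.05.

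Genotype was compared within each treatment and region, in 6 comparisons, and no enzyme passed. The call rates over all genes were 0.0601% (DD), 0.0351% (DC) and 0.0301% (vehicle) in cortex and 0% (DD), 0.02% (DC) and 0.16% (vehicle) in hippocampus. Pkm in hippocampus had ratios of 1.19 in APOE4 DC and 1.61 in APOE3 DC mice (log2 fold change -0.96, SE 0.35, unadjusted p 0.00640, adjusted p 0.998). In vehicle mice it was 2.27 in APOE4 and 0.884 in APOE3 hippocampus (0.88, SE 0.42, unadjusted p 0.0370, adjusted p 0.993). In cortex, Aldoa had log2 fold changes of -0.71 (SE 0.41) with DD, -0.66 (SE 0.42) with DC and 0.05 (SE 0.47) with vehicle. The 7 interaction tests (treatment by genotype in each region, and region by genotype, DD and DC) likewise passed for 0 enzymes and for 0 of 19962 genes, and the smallest adjusted p of an enzyme was 1.00.

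Among themselves the enzymes went weakly together in cortex. Over the 49 cortex libraries, 39 of the 45 pairs of enzymes had a Spearman's rho above 0, with a median of 0.18 and the highest, 0.48, between Aldoa and Ldhb. Over the 48 hippocampus libraries, 22 of 45 pairs were above 0 and the median was -0.01. These are descriptions, since the ratios of a library share its negative probe and its depth. The genes whose ratio followed the summed enzymes most closely over all 97 libraries, out of 212 genes with a median ratio of 1.5 or more in cortex, were Trir (rho 0.694), Zfp180 (0.691), the ubiquitin gene Ubb (0.687), Rrp36 (0.685) and Chic2 (0.678). The choice of genes by their cortex level, and the ranking over both regions against a sum that is higher in cortex, favour genes that are higher in cortex. The median ratio of Trir was 31.9 in cortex and 10.3 in hippocampus, and that of Ubb was 4.62 in cortex and 1.94 in hippocampus. Within cortex alone their rho ran between 0.507 (Trir) and 0.707 (Ubb), and within hippocampus between 0.101 (Chic2) and 0.398 (Trir).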

How the data were processed

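Captured regions of brain sections were profiled with GeoMx; libraries were read on an Illumina NovaSeq, as the labels' protocols state. Per the submitters' processing notes the build was mm10, and which counter and filters were run is not given in the sources used here. What the authors deposited is a table of expected counts per gene, neither scaled nor normalised by the authors as far as the values show, whole in all but 4 of 19963 rows, with 1 as the lowest value in 94 of 97 libraries. They were rounded to whole numbers before modelling. The negative probe row was left out of library sizes and tests and served as the denominator of the ratios; the summed level is the sum of the 10 enzymes divided by 10 times the negative probe.

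Counts of all 19962 genes were fitted with edgeR 4.0.16 in R 4.3.3 (TMM scaling, quasi-likelihood F test, Benjamini-Hochberg adjustment over all genes, threshold 0.05). No filter was used, because the low-count filter filterByExpr removes every enzyme. A filter on a mean of 2 or more kept all 10 and gave the same 3 calls in the average region contrast. A model of 12 groups gave the region contrasts, and models of the 6 groups of each region gave treatment, genotype and their interactions. Standard errors are those implied by the p-value of the test, and 95% intervals are approximate. On simulated data the same code recovered 99% of 2-fold and 100% of 4-fold changed genes in the average region contrast, with 1 false call among the unchanged genes. The changed genes all had means above that of the median gene. Their whole count was multiplied, background included, and libraries were drawn independently. This recovery therefore does not carry over to enzymes whose signal is mostly background, or to regions that share an animal. Negative probe values were compared with exact permutation tests. No libraries were identical (0 pairs). The alternatives were upper-quartile scaling, scaling to the negative probe or to the genes passing filterByExpr (minimum count 10), DESeq2 1.42.0, limma 3.58.1 on log2 ratios without and with the run of wells as a random block, a mean of 2 or more, filterByExpr itself, values of 1 set to 0, libraries with a negative probe under 5, sums over the 48 runs of wells that hold 2 libraries, and leaving out single libraries. In the fits without 1 library, the trend of the dispersion (the spread of counts between libraries) was kept from the fit of all libraries. It was not estimated again, so the library left out still had a part in it.

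The enzymes, the other gene lists and the rule for named genes were chosen with earlier results of these data known. The rule names the 10 enzymes, the called genes of the other glycolysis list or its 4 highest in cortex, Apoe, and the 5 genes most alike to the summed enzymes. Slc17a7 was named after its values were seen, as the 1 cell-type marker that passed. Gene positions and promoter sequences come from RefSeq (GRCm38.p6). Counting error limits single values, since many values lie between 1 and 10 counts.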

Additional observations from a re-analysis of the deposited data

Results flagged for a closer look

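In 144 groups of values (each enzyme, their sum and the negative probe in 12 groups), 11 had a library far from the others of its group by Dixon's test. Chance flags about 1 in 20 groups of continuous, normal values. That rate does not hold for small counts with many libraries tied at the floor. Each value of an enzyme or their sum is a ratio to the negative probe. Libraries far above their group were APOE3 vehicle hippocampus 7 for Aldoa (1.41, the next 0.934), APOE3 vehicle hippocampus 3 for Eno1 (1.53), APOE3 vehicle cortex 1 for Ldha (1.75), APOE4 DD hippocampus 1 for Ldhb (2.08, the next 1.11) and APOE3 vehicle hippocampus 8 for Pgk1 (1.58). The deposited value was 2 counts in each of these APOE3 libraries, and 5 in the APOE4 one, over groups in which most or all others were at or near background. Libraries far below were APOE4 DC hippocampus 7 for Gapdh (0.264, the next 0.853), APOE3 DC hippocampus 8 for Gapdh (0.537) and APOE4 DC cortex 4 for Pgk1 (0.362, the next 1.03), with deposited values of 2, 1 and 1. For the summed enzymes, APOE4 DD cortex 5 was low (0.735, the next 1.29) and APOE3 vehicle cortex 3 was high (2.80, the next 1.89). The negative probe itself, as deposited, was high in APOE3 DC hippocampus 8 (1.86, the next 1.35), the library that was low for Gapdh. No difference of an effect between genotypes or regions passed its own test.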

How the results depend on the processing

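The cortex difference of Aldoa passed in all 10 alternatives (log2 fold change 0.93 to 2.09) and in all 97 fits that left out 1 library (1.39 to 1.46). That of Pkm passed in 9 (0.86 to 1.23), and missed with 0.46 (adjusted p 0.0568) when scaled to the genes passing filterByExpr, which moved the median of all genes from -0.03 to -0.45; leaving out 1 library gave 0.92 to 1.01. Gapdh missed under that scaling (0.24, adjusted p 0.272), without libraries of high negative probe (0.75, adjusted p 0.0915) and without APOE3 DC cortex 5 (0.70, adjusted p 0.0527; 0.70 to 0.80 over single libraries). The number of enzymes called over the average contrast was 2 or 3, except 1 under filterByExpr-gene scaling. Without 1 library it was 2 to 3, and 2 to 4 over the 6 pairs, where it was 10 under that scaling and 1 with values of 1 set to 0 or without the libraries of high negative probe. Interactions gave 8 calls and genotype 9 under that scaling, and genotype 7 with values of 1 set to 0. Treatment gave 17 calls under filterByExpr-gene scaling and 1 in 4 alternatives. It gave 0 with upper-quartile scaling, limma, the run of wells as a block, values of 1 set to 0 or the libraries of high negative probe left out. Without single libraries it gave 0 to 1. Under filterByExpr-gene scaling many genes of the panel were called with the enzymes. DC against vehicle called 19902 of 19962 genes in APOE4 hippocampus (10 enzymes, all higher) and 7451 in APOE3 hippocampus (7 enzymes, all higher). Cortex against hippocampus in APOE4 DC mice called 19922 genes (10 enzymes, all lower in cortex). The region by DC interaction called 8117 (8 enzymes), and genotype in DC hippocampus called 19628 (9 enzymes). The cause was not tested.

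The Pkm difference under DC in APOE4 hippocampus passed in 4 alternatives (-1.12 to -1.02). It was -0.71 (adjusted p 0.171) with upper-quartile scaling, and -0.98 with limma (0.395) and with the run of wells as a block (0.373). With values of 1 set to 0 it was -0.69 (0.706). Under filterByExpr-gene scaling it was 1.64, where the median of all genes was 2.63. Under that scaling APOE4 DC cortex against hippocampus gave -0.96 for Aldoa and -0.79 for Pkm, next to an all-gene median of -1.90, and the average contrast gave -0.42 for Eno1, -0.40 for Tpi1, -0.34 for Pgam1, -0.22 for Pgk1, -0.14 for Ldhb and -0.11 for Eno2. Eno1 was also below 0 with DESeq2 (-0.0077), limma (-0.038 with and without the run of wells) and low negative probe only (-0.077), and between -0.0583 and 0.0470 without single libraries. Tpi1 was -0.014 with low negative probe only, and -0.011 to 0.11 without single libraries. Ldha was 0.0023 scaled to the negative probe. With 1 subtracted from every value and from the negative probe, the summed median was 2.47 in cortex and 1.39 in hippocampus. filterByExpr left 58 genes and 0 enzymes, so it gave no value. No paired analysis was possible because the labels carry no replicate numbers. The 95% intervals of the 7 enzymes not called in the average contrast lay between -0.44 and 0.72.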
